A study of Homo sapiens with 6 samples.

Results

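Divergent transcripts are RNAs that start near the promoter of a gene and run away from it on the other strand. The set described here held 162 of them, each paired with the gene whose promoter it faces, in TC-71 Ewing sarcoma cells treated with BEZ235 or with solvent. A pair was included when a table row was named as a gene symbol with the suffix -DT, another row carried exactly that gene symbol, and the mean of the 6 libraries was at least 50 normalized counts in both rows. Membership was therefore chosen by the measured level over both groups together, and not by the change with treatment. Of 48114 rows, 305 were named as divergent transcripts, 301 of them had a partner row of exactly that symbol, and 162 pairs met the level in both rows. In 136 pairs the divergent row was below the level, and in 3 pairs the partner alone was. A further 4 divergent transcripts had their partner only in a row with several symbols, and 1 of those had the level. No row belonged to more than 1 pair, and all 162 partners were protein-coding genes in RefSeq.

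TC-71 is a human Ewing sarcoma cell line, with the genotype given as WT in the labels. Cells received BEZ235, an inhibitor of the kinases PI3K and mTOR, or DMSO, its solvent, for 16 h, and RNA was sequenced from 3 biological replicates of each group. The design compares inhibited with uninhibited signalling through these kinases. All values come from 1 cell line at 1 time.

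Many mammalian promoters fire in both directions. The upstream RNA is usually stopped early by the Integrator or restrictor complexes or at early polyadenylation sites, and is degraded by the nuclear exosome, which the NEXT and PAXT adaptors guide to its targets. U1 snRNP, which recognises splice donor sites, protects longer transcripts from such early ends, so that stable divergent transcripts are often spliced long noncoding RNAs. A steady-state RNA level reflects synthesis and decay together.

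The libraries held 184790722 to 233767211 reads, recovered from the normalized values, and 3 reads were worth 2.50 to 3.47 normalized counts. All 9 Ewing sarcoma markers reached 50 normalized counts in at least 1 library. The summed level of the 4 endothelial markers was 2.06 to 21.6 in the DMSO and 8.11 to 13.8 in the BEZ235 libraries, and 4 of 5 blood markers were under 50 in every library. The fifth, CD68, had 2172 to 3269 with DMSO and 1432 to 1494 with BEZ235. The 5 fibroblast markers summed to 9327 to 10584 with DMSO and 5806 to 6299 with BEZ235, mostly from COL1A1, and DCN was higher with BEZ235 (660 to 771 against 591 to 617). The 5 epithelial markers summed to 1698 to 1743 and 1099 to 1325, mostly from KRT8, while EPCAM and KRT18 were higher in every BEZ235 library than in any DMSO library. KRT19, CD3E and HBB were at 0 in all 6 libraries. The part of these in the results was not tested. In bulk RNA, fewer cells of a kind and less RNA per cell cannot be told apart.

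Most pairs sat close together on the genome. RefSeq placed a start for both members of 124 pairs, and in 117 of these the starts pointed away from each other. The median distance between the starts was 152 bases, with a range of -841 to 172748 bases, and 96 pairs had starts within 300 bases. In 6 pairs the starts lay more than 1000 bases apart, and in 3 pairs (RFX3, EPM2A and CNNM3) the rows of the deposited table lay more than 2000 bases apart. RFX3-DT lay 142085 bases from RFX3 both by RefSeq starts and by rows, and the row of EPM2A-DT lay 78853 bases from that of EPM2A. For RB1 and GARS1 the RefSeq starts lay 172748 and 16956 bases apart, while the rows of the deposited table lay 24 bases apart and overlapped, respectively. In the deposited coordinates the rows of 133 pairs lay apart and those of 29 overlapped, and in 48 pairs another expressed row lay over the divergent row. Reads of overlapping rows could not be told apart, since no source used here gives the counting rule or the use of strand.

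**Figure D1:**
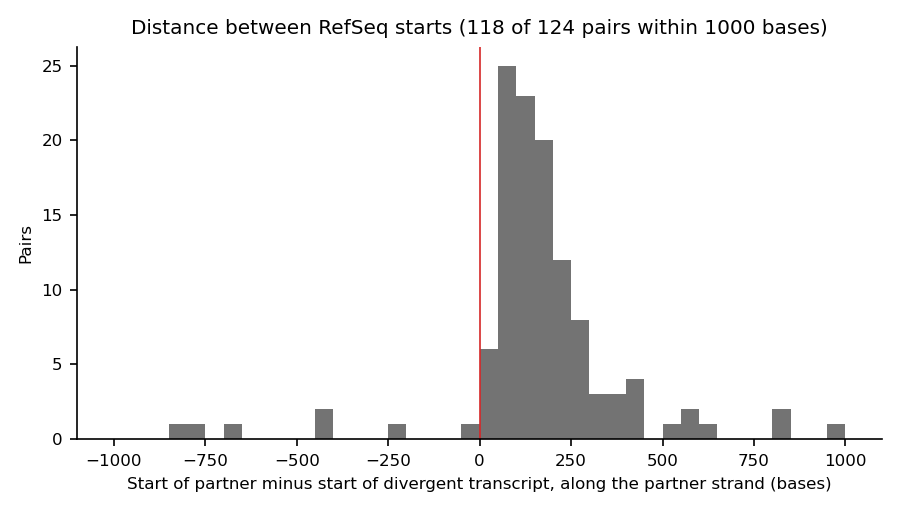
Distance in bases from the RefSeq start of the divergent transcript to that of its partner along the partner's strand (x axis, bins of 50 bases) against the number of pairs (y axis). Of 124 pairs with both starts, 118 lie within 1000 bases and are drawn, and most sit to the right of 0, where the transcripts run apart.

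The promoters below are shown as examples of the shared stretch of DNA, taken from pairs whose values follow. They are the 250 bases before the start of the partner in RefSeq (GRCh38.p14), written 5' to 3' on the partner's strand, and capitals mark the bases that lie between the start of the divergent transcript and that of the partner. The divergent transcript rose with BEZ235 at MOCS2 (chr5:53109758-53110007, minus strand), SUCLG2 (chr3:67654613-67654862, minus strand) and SMC5 (chr9:70258728-70258977, plus strand). It fell at BTG2 (chr1:203305269-203305518, plus strand), CSTF3 (chr11:33161481-33161730, minus strand) and BSN (chr3:49554227-49554476, plus strand).
MOCS2 promoter: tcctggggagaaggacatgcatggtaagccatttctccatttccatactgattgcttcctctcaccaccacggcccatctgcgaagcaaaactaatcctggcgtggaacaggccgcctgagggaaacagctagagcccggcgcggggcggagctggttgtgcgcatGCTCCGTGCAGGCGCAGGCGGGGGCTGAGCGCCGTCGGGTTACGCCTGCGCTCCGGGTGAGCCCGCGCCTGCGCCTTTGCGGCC
SUCLG2 promoter: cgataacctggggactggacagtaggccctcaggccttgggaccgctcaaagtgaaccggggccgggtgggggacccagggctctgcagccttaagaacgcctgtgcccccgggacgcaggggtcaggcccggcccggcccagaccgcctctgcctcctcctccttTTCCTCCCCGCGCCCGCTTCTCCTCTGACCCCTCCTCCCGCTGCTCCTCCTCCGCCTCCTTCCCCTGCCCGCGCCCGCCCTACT
SMC5 promoter: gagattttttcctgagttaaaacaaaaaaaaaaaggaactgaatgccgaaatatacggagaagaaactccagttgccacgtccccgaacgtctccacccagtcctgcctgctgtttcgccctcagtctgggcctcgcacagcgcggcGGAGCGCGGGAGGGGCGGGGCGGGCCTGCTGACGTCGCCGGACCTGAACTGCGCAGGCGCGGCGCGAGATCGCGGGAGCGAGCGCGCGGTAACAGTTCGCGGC
BTG2 promoter: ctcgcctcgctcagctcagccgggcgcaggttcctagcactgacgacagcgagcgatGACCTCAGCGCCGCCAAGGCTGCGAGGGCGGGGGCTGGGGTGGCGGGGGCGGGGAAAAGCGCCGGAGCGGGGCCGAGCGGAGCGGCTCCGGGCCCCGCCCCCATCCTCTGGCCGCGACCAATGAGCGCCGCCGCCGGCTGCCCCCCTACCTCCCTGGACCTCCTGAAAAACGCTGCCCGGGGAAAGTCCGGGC
CSTF3 promoter: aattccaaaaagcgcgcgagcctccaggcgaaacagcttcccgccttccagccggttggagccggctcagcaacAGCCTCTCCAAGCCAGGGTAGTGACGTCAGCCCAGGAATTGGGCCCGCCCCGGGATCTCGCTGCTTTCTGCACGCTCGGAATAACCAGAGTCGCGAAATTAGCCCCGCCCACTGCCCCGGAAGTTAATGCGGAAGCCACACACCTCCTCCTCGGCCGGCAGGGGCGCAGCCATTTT
BSN promoter: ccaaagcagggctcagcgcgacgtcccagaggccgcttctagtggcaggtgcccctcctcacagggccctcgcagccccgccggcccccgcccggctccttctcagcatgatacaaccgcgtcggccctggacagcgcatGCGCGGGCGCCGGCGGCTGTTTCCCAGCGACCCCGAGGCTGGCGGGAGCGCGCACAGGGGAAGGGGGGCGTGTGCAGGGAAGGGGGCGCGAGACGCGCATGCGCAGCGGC

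Between the starts, 84 bases lay at MOCS2 and at SUCLG2, 103 at SMC5, 110 at BSN, 176 at CSTF3 and 193 at BTG2. The stretch was 63.1% G or C at CSTF3 and 73.8 to 79.1% at the other 5. The promoters of the set held more CpG than RefSeq promoter windows as a whole. Over the whole windows of 300 bases (250 before to 50 after the partner's start), the 124 pairs had a median G and C content of 68.3% and 32 CpG, against 58.7% and 14 in all 35116 RefSeq promoter windows. The latter were not limited to expressed or protein-coding genes, and no matched promoters were compared. Windows of divergent transcripts that were called higher (34) and lower (41) had medians of 67.7% and 68.0%, and 29 and 32 CpG.

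Short promoter motifs were searched on both strands of the windows, and none of the motifs contained another. The SP box, GGGCGG, was in 78.2% of the members' windows and 45.0% of all windows. The ETS site, CCGGAAG, was in 29.8% and 10.3%, and the NRF1 site, GCGCATG, in 11.3% and 4.43%. The TATA box, TATAAA, was in 5.65% and 11.5%, and the NF-Y box, CCAAT, in 37.1% and 34.6%. The YY1 site, AAGATGG, was in 7.26% and 5.84%, the cAMP element, TGACGTCA, in 4.03% and 1.85%, and the E2F site, TTTCGCGC, in 1.61% and 0.515%. The SP box was in 85.3% of windows with a divergent transcript called higher and in 75.6% of those with one called lower. The ETS site was in 23.5% and 36.6% of the same windows. Among the printed stretches, that of CSTF3 held the NF-Y box, the SP box, the ETS site and the cAMP element, and that of BTG2 the NF-Y box and the SP box. Those of SMC5 and SUCLG2 held the SP box, and that of BSN the NRF1 site. At MOCS2 the SP box lay before the stretch, and the NRF1 site ran across its edge. The SP box of BSN also lay before its stretch. These matches describe the letters only, and all windows were again not limited to expressed or protein-coding genes.

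BEZ235 moved the divergent transcripts in both directions. By limma with Benjamini-Hochberg adjustment over all 23923 tested rows (threshold 0.05), 45 of 162 divergent transcripts were called higher, 57 lower and 60 were not called. In all, 63.0% of the divergent rows and 74.7% of the partner rows were called, against 73.8% of the 19528 rows with a mean of at least 50 and 66.3% of all tested rows. Among the rows with a mean of at least 50, 36.5% were called higher and 37.3% lower. The divergent rows came to 27.8% and 35.2%. In the 144 pairs with a mean of at least 50 in each group, 42 divergent transcripts were called higher and 45 lower. The remaining 18 pairs held 3 called higher and 12 called lower, so the excess of falls came largely from these. Of the partners, 57 were called higher (35.2%), 64 lower (39.5%) and 41 were not called. The shares of divergent rows called in all and called higher lay below those of rows with a mean of at least 50. The other shares were nearer to theirs, and these differences were not tested.

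Divergent transcripts and partners differed more in the sizes of change than in the counts. Of the divergent transcripts, 27 were called higher and 21 lower by at least 2-fold, 29.6% in all, against 25.1% of rows with a mean of at least 50. Neither share leaves out rows that reached this mean only through the group where they were higher. Such members were among these 2-fold changes. They include BTG2-DT, UCHL1-DT, CSTF3-DT and SLC20A1-DT among the falls, and MTA1-DT, SUCLG2-DT and RFX3-DT among the rises. The 29.6% therefore rests in part on the choice by level. The difference between the shares was not tested. Of the partners, 10 were higher and 10 lower by at least 2-fold, 12.3% in all. The median absolute log2 fold change was 0.62 for divergent transcripts, 0.41 for partners and 0.54 for rows with a mean of at least 50. The change of the divergent transcript was larger in size than that of its partner in 102 of 162 pairs. Its error was larger too, with a median standard error of 0.18 against 0.07, and of 0.29 for divergent rows with a mean of 50 to 100. The median log2 fold changes themselves lay near 0, at 0.0066 for divergent transcripts, -0.0092 for partners and -0.00085 for all tested rows. The 3 libraries of a group stood apart from the other 3 in 117 divergent rows (72.2%) and in 122 partner rows (75.3%), against 77.3% of rows with a mean of at least 50.

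Divergent transcripts near the level limit had few reads. OSMR-DT, just inside with a mean of 51.6, had 58.3, 49.6 and 65.1 normalized counts with DMSO and 45.2, 50.4 and 40.8 with BEZ235. UCHL1-DT was also just inside, with a mean of 51.6, and CRIM1-DT and CHFR-DT were just outside, with 49.9 and 48.7. In 144 pairs both rows had a mean of at least 50 in each group. In the other 18 a row was below that mean in 1 group, so these passed only through the group where they were higher; among these 3 divergent transcripts were called higher, 12 lower and 3 were not called.

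**Figure D2:**
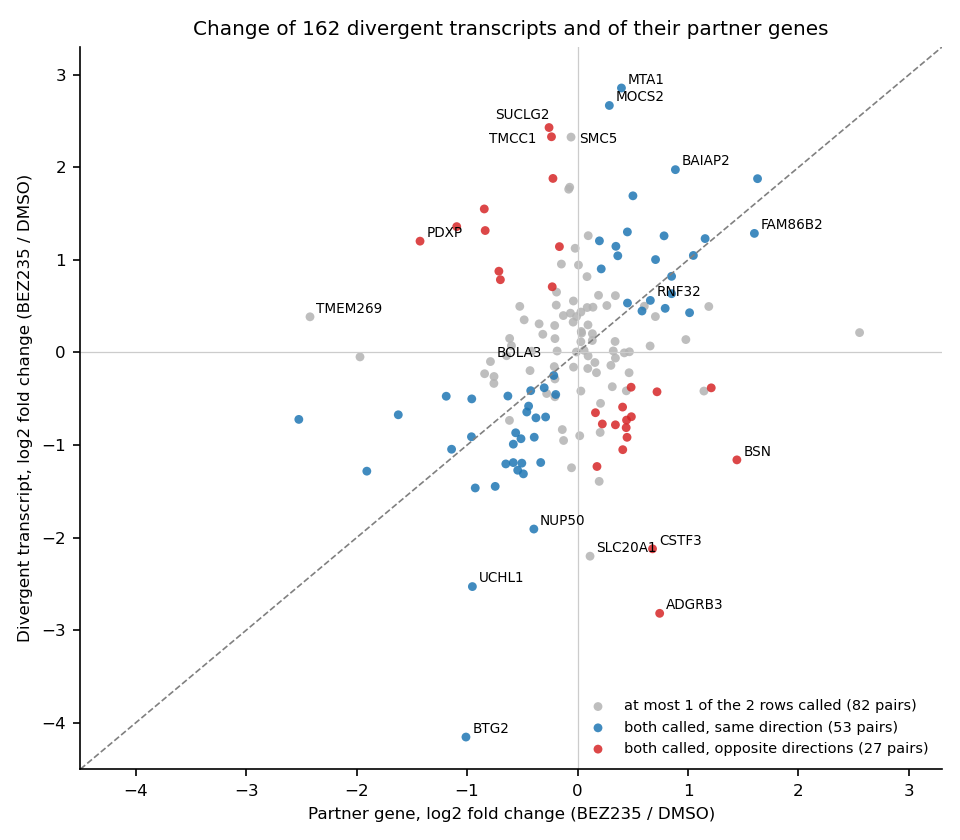
Log2 fold change with BEZ235 of each divergent transcript (y axis) against that of its partner gene (x axis), 1 point per pair, 162 pairs; the dashed line marks equal change and names give the partner. Pairs with both rows called in the same direction (blue, 53) and in opposite directions (red, 27) lie on both sides of 0 on both axes.

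A divergent transcript and its partner often did not change alike. Both rows were called in 80 pairs, in the same direction in 53 (22 higher, 31 lower) and in opposite directions in 27 (11 with the divergent transcript higher and the partner lower, 16 the reverse). In 22 pairs only the divergent row was called, in 41 only the partner, and in 19 neither. Across the 162 pairs the changes correlated with Pearson's r of 0.23 and Spearman's rho of 0.26, a description over pairs that share the same 6 libraries. The difference between the log2 changes of the pair, tested within libraries, was called in 94 pairs (58.0%), with the divergent change above that of the partner in 48 and below it in 46. Over all 8441 pairs of neighbouring rows that entered this test 44.3% were called. These pairs were not held to a mean of at least 50, so the shares are not at like levels. All 27 opposite pairs and 24 of the 53 same-direction pairs were among the 94 called.

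Other kinds of neighbours give a scale for these counts. In 842 head-to-head pairs of protein-coding genes with RefSeq starts, 278 of the 507 pairs with both rows called moved in the same direction (54.8%), against 66.2% of the divergent pairs, and Pearson's r was 0.19 and Spearman's rho 0.09. In 589 pairs of an antisense transcript named -AS1 and its gene, 277 of 344 did (80.5%), with r of 0.61 and rho of 0.55. These antisense pairs were set beside the divergent ones after the data were seen. In a test family made of the head-to-head pairs and the divergent pairs, the pair difference was called in 676 of 842 (80.3%) and in 102 of 162 (63.0%). With rows apart, changes had the same sign in 51.5% of 551 head-to-head pairs and in 57.9% of 133 divergent pairs. With both rows called, 177 of 333 and 42 of 66 moved in the same direction. A subset formed after the data were seen held 91 divergent pairs with rows apart and no other expressed row over the divergent row. There the same sign was seen in 51.6%, and 28 of 46 moved in the same direction. The kinds of pairs differ in level and in overlap of their rows, and the differences between them were not tested.

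Subsets by overlap, distance and level were formed with limits chosen after the data were seen. Pearson's r was 0.28 in the 29 pairs with overlapping rows and 0.22 in the 133 with rows apart. It was 0.27 in the 96 pairs with starts within 300 bases and 0.03 in the 28 with starts farther apart. In the 43 pairs whose divergent row had a mean of at least 500 it was 0.0021, and in the 36 with a mean of 50 to 100 it was 0.33. The share of pairs with changes of the same sign was 58.3% at a mean of 50 to 100, 57.8% at 100 to 500 and 58.1% at 500 and over. In the 43 pairs 13 were called in the same and 11 in opposite directions. Differences between these subsets were not tested.

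MTA1-DT had the largest rise of the set (chr14:105417581-105419739). Its partner MTA1 encodes a subunit of the NuRD chromatin remodelling complex. MTA1-DT had 25.9, 48.6 and 46.7 normalized counts with DMSO and 294, 292 and 279 with BEZ235. Its DMSO mean, 40.4, was below 50, so it entered the set only through BEZ235. The groups did not overlap, and the log2 fold change was 2.86 ± 0.26 (SE, n = 3 per group, limma adjusted p = 2.47e-06). MTA1 itself went from 28863, 30523 and 30172 to 39287, 41415 and 37361, a log2 fold change of 0.40 ± 0.05 (limma adjusted p = 6.56e-05). Both rows rose, and the divergent transcript rose more, by a pair difference of 2.46 ± 0.24 (limma adjusted p = 7.78e-05).

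MOCS2-DT (chr5:53109842-53115126) lies beside MOCS2, which encodes the subunits of molybdopterin synthase. It had 64.8, 80.6 and 73.4 normalized counts with DMSO and 492, 489 and 424 with BEZ235, a log2 change of 2.67 ± 0.16 (SE; limma adjusted p = 1.16e-07). The libraries of the groups were far apart. MOCS2 rose by a log2 fold change of 0.29 ± 0.07 (limma adjusted p = 0.00315).

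BAIAP2-DT (chr17:81029133-81034719) was among the 4 divergent rows with the highest counts, which are not scaled for length. It had 2136, 2336 and 2438 normalized counts with DMSO and 9550, 8970 and 8635 with BEZ235, a log2 change of 1.98 ± 0.07 (SE; limma adjusted p = 1.61e-09). The partner BAIAP2 encodes an adaptor between the membrane and the actin skeleton. It had 6235, 5836 and 6448 with DMSO and 10900, 12111 and 11226 with BEZ235. Neither row's groups overlapped, and the pair difference was 1.09 ± 0.08 (limma adjusted p = 1.6e-05).

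SMC5-DT (chr9:70193998-70258874) rose beside a partner that was not called. It had 42.1, 37.2 and 70.9 normalized counts with DMSO and 199, 283 and 262 with BEZ235, a log2 change of 2.33 ± 0.27 (SE; limma adjusted p = 1.87e-05). SMC5, a core part of a DNA repair complex, had 3736, 3193 and 3307 with DMSO and 3269, 3265 and 3273 with BEZ235 (log2 fold change -0.06 ± 0.07, limma adjusted p = 0.468). The SMC5 libraries of the groups overlapped, those of SMC5-DT did not.

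SUCLG2-DT and TMCC1-DT rose while their partners fell. SUCLG2-DT (chr3:67654697-67947710) had 8.64, 23.8 and 25.9 normalized counts with DMSO and 118, 94.8 and 87.0 with BEZ235, a log2 change of 2.43 ± 0.42 (SE; limma adjusted p = 0.000404). Its partner, the GTP-specific subunit of succinyl-CoA ligase in mitochondria, had 2935, 2879 and 2828 with DMSO and 2414, 2413 and 2400 with BEZ235 (log2 fold change -0.26 ± 0.06, limma adjusted p = 0.00212). SUCLG2-DT also entered the set only through BEZ235, with a DMSO mean of 19.4. A row without a symbol overlaps it.

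TMCC1-DT (chr3:129893871-129908912) had 216, 267 and 216 normalized counts with DMSO and 1210, 1158 and 1142 with BEZ235, a log2 change of 2.33 ± 0.11 (SE; limma adjusted p = 2.22e-08). Its row lies wholly inside that of TMCC1, a gene for an endoplasmic reticulum membrane protein, so the rows may share reads. TMCC1 had 857, 945 and 886 with DMSO and 754, 754 and 772 with BEZ235 (log2 fold change -0.24 ± 0.08, limma adjusted p = 0.0283). That fall was not called without DMSO replicate 2, DMSO replicate 3, BEZ235 replicate 1 or BEZ235 replicate 2 (limma adjusted p = 0.0701, 0.0711, 0.0730 and 0.0722) or after quantile normalization (0.0930).

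BTG2-DT had the largest fall (chr1:203298758-203305325). It had 200, 180 and 180 normalized counts with DMSO and 9.27, 4.94 and 18.1 with BEZ235, a log2 change of -4.15 ± 0.42 (SE; limma adjusted p = 5.93e-06). The BEZ235 libraries were all far below the DMSO libraries, though a few reads decide their values. BTG2-DT entered the set only through DMSO (BEZ235 mean 10.8), as did UCHL1-DT (14.3), CSTF3-DT (31.2) and SLC20A1-DT (45.4), also among the 6 largest falls. BTG2, a gene that restrains proliferation and responds to p53, had 3825, 3825 and 3635 with DMSO and 1992, 1746 and 1870 with BEZ235 (log2 fold change -1.01 ± 0.07, limma adjusted p = 2.21e-07). The divergent transcript fell further than its partner, by a pair difference of -3.14 ± 0.41 (limma adjusted p = 0.0004). The row of FMOD overlaps that of BTG2-DT.

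UCHL1-DT (chr4:41220074-41256727) had 68.1, 121 and 77.6 normalized counts with DMSO and 17.4, 11.9 and 13.6 with BEZ235, a log2 change of -2.53 ± 0.37 (SE; limma adjusted p = 0.000107). UCHL1, a deubiquitinating enzyme abundant in neurons, had 65281, 62233 and 66279 with DMSO and 33415, 34321 and 32444 with BEZ235 (log2 fold change -0.95 ± 0.05). Both fell without overlap of the groups. The row of APBB2 overlaps that of UCHL1-DT.

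NUP50-DT (chr22:45133758-45163781) had 537, 566 and 482 normalized counts with DMSO and 136, 129 and 156 with BEZ235, a log2 change of -1.91 ± 0.14 (SE; limma adjusted p = 4.69e-07). NUP50, a nuclear pore protein, fell less, by 0.40 on the log2 scale (limma adjusted p = 0.003). Its groups did not overlap either.

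SLC20A1-DT (chr2:112641830-112645707) had 200, 213 and 212 normalized counts with DMSO and 37.1, 58.3 and 40.8 with BEZ235, a log2 change of -2.20 ± 0.23 (SE; limma adjusted p = 8.57e-06). SLC20A1, a phosphate transporter, had 1721, 2369 and 2187 with DMSO and 2279, 2225 and 2225 with BEZ235 and was not called (log2 fold change 0.11 ± 0.10, limma adjusted p = 0.355). Only the divergent row separated the groups.

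**Figure D3:**
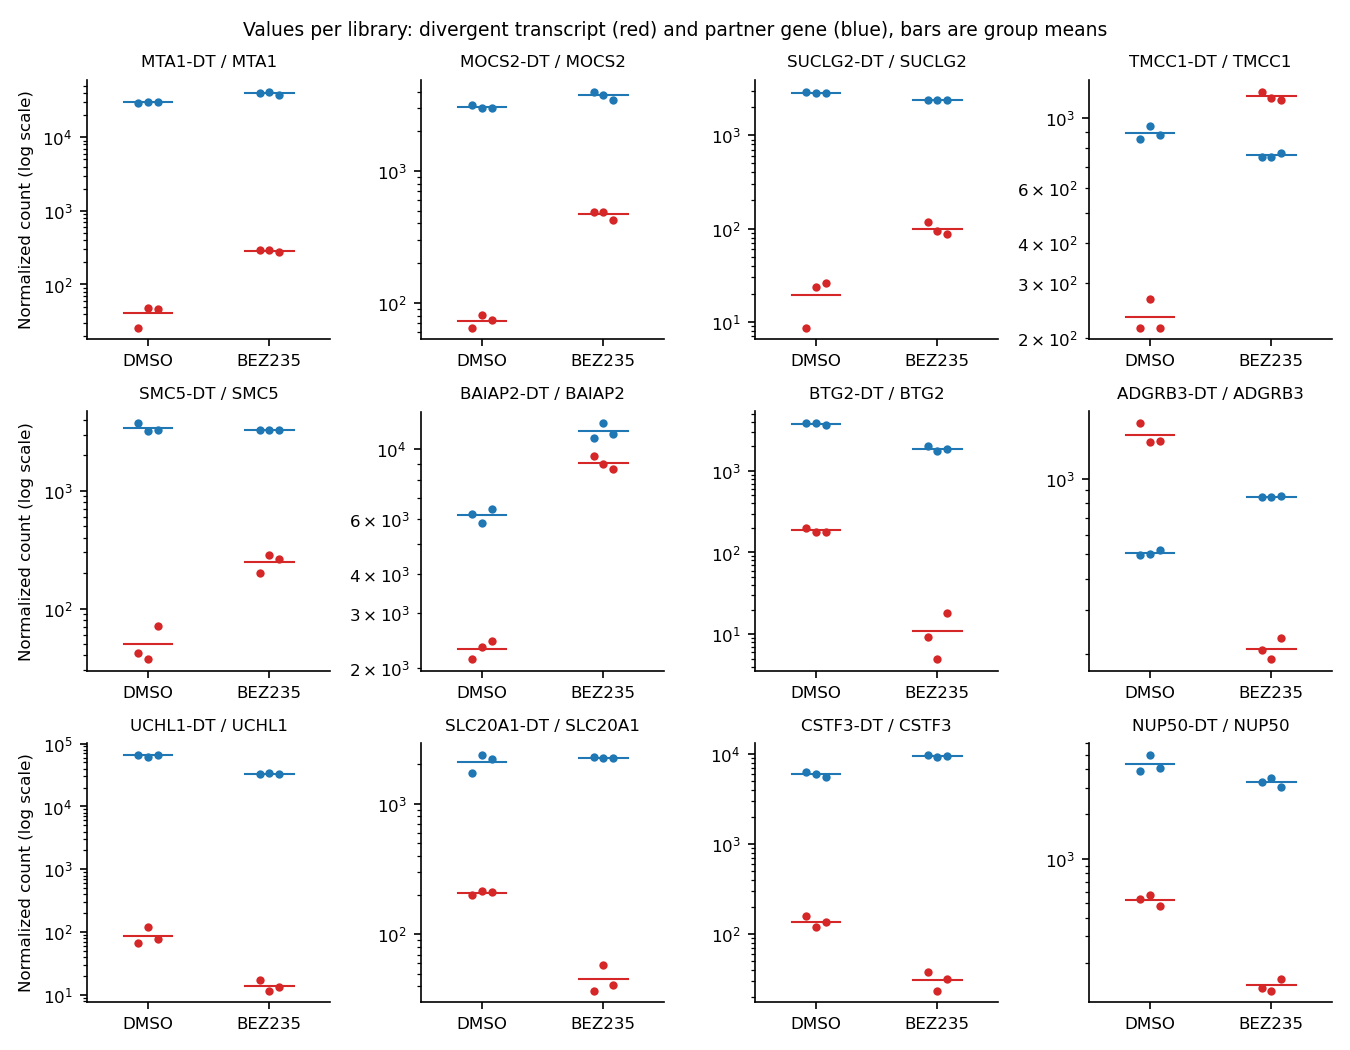
Normalized counts (y axes, log scale, a range of its own in each panel) in the 3 DMSO and 3 BEZ235 libraries for the 6 largest rises and 6 largest falls among called divergent transcripts, with the divergent transcript in red, its partner in blue and bars at group means. In all 12 panels the red points of the groups do not overlap, and in the panels of SMC5 and SLC20A1 the blue points do.

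ADGRB3 had the largest pair difference with the divergent transcript lower. ADGRB3-DT (chr6:68632660-68635027) had 1662, 1396 and 1408 normalized counts with DMSO and 207, 192 and 232 with BEZ235, a log2 change of -2.82 ± 0.12 (SE; limma adjusted p = 6.29e-09). ADGRB3, an adhesion receptor coupled to G proteins, had 496, 500 and 522.5 with DMSO and 844, 846 and 854 with BEZ235 (log2 fold change 0.74 ± 0.09, limma adjusted p = 2.04e-05). The order of the groups was the reverse in the paired rows, and the pair difference was -3.56 ± 0.11 (limma adjusted p = 2.43e-07).

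CSTF3-DT (chr11:33161657-33191598) had 158, 119 and 136 normalized counts with DMSO and 38.2, 23.7 and 31.7 with BEZ235, a log2 change of -2.12 ± 0.28 (SE; limma adjusted p = 4.59e-05). CSTF3, a subunit of the cleavage stimulation factor that acts in 3' end formation, had 6268, 5983 and 5467 with DMSO and 9756, 9200 and 9381 with BEZ235 (log2 fold change 0.68 ± 0.06, limma adjusted p = 2.36e-06). The pair difference was -2.80 ± 0.25 (limma adjusted p = 3.89e-05). No group overlapped in either row.

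BSN-DT (chr3:49549306-49554366) had 236, 272 and 246 normalized counts with DMSO and 116, 96.8 and 124 with BEZ235, a log2 change of -1.16 ± 0.17 (SE; limma adjusted p = 0.000118). BSN, a scaffold protein of the presynaptic zone, had 161, 259 and 195 with DMSO and 485, 628 and 543 with BEZ235 (log2 fold change 1.44 ± 0.18, limma adjusted p = 3.08e-05). In neither row did the groups overlap, and the pair difference was -2.60 ± 0.21 (limma adjusted p = 2.6e-05).

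PDXP-DT (chr22:37641832-37658377) moved the other way. It had 1590, 1534 and 1553 normalized counts with DMSO and 3619, 3627 and 3523 with BEZ235, a log2 change of 1.20 ± 0.06 (SE; limma adjusted p = 2.29e-08). PDXP, a phosphatase of pyridoxal phosphate, had 5285, 4872 and 5359 with DMSO and 2000, 1967 and 1808 with BEZ235 (log2 fold change -1.43 ± 0.07, limma adjusted p = 1.52e-08). The pair difference was 2.63 ± 0.06 (limma adjusted p = 8.82e-08), and the row of SH3BP1 overlaps that of PDXP-DT.

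TMEM269 had the largest pair difference with the divergent transcript higher, 2.81 ± 0.23 (SE; limma adjusted p = 2.79e-05), and it came from the partner. TMEM269 had 508, 302 and 415 normalized counts with DMSO and 90.3, 60.2 and 73.4 with BEZ235 (log2 fold change -2.42 ± 0.23, limma adjusted p = 3.29e-06). TMEM269-DT (chr1:42776666-42784895) had 84.3, 74.4 and 70.1 with DMSO and 104, 91.8 and 103 with BEZ235. Its groups did not overlap, but it was not called (log2 fold change 0.39 ± 0.22, limma adjusted p = 0.14); limma without the trend called it higher (adjusted p = 0.0178), which would make the pair an opposite one. The row of C1orf50 overlaps it.

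The other divergent rows with the highest counts changed less or not by the test. BOLA3-DT (chr2:74147981-74152389) had 7213, 7283 and 7247 normalized counts with DMSO and 6890, 6895 and 6538 with BEZ235 and was not called (log2 fold change -0.10 ± 0.05, limma adjusted p = 0.108); it was called with total-count scaling, at -0.19 (limma adjusted p = 0.0115). BOLA3, which acts in the assembly of iron-sulfur proteins, fell from 7229, 8080 and 7319 to 4525, 4158 and 4410 (log2 fold change -0.79 ± 0.06). RNF32-DT (chr7:156472099-156640654) went from 5002, 4719 and 5000 to 7083, 7644 and 7025, a log2 fold change of 0.56 ± 0.06, and RNF32, a RING finger gene, rose by 0.66 ± 0.10. FAM86B2-DT went from 2403, 2480 and 2704 to 6207, 6333 and 5957, a log2 fold change of 1.29 ± 0.06. FAM86B2 rose by 1.60 ± 0.11, in a gene family with near-identical copies, and 6 other expressed rows lie over the divergent row, so the values of this pair are uncertain. The pair difference was not called for RNF32 (-0.10 ± 0.09, limma adjusted p = 0.429) nor for FAM86B2 (-0.31 ± 0.12, limma adjusted p = 0.071); without DMSO replicate 2 that of FAM86B2 was called, at -0.46 (limma adjusted p = 0.000636).

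Some other opposite pairs were chosen after their values were seen. MAFG-DT had 926, 1525 and 1314 normalized counts with DMSO and 3266, 3189 and 3014 with BEZ235 (log2 fold change 1.36 ± 0.15), while MAFG, a small Maf transcription factor, fell by 1.09 on the log2 scale. ISL1-DT, whose row overlaps that of the homeobox gene ISL1, had 207, 369 and 208 with DMSO and 716, 691 and 815 with BEZ235 (log2 fold change 1.55 ± 0.20), and ISL1 fell by 0.84. MAGOH-DT rose by 0.79 ± 0.20 and MAGOH, of the exon junction complex, fell by 0.70; the row of LRP8 overlaps that of MAGOH-DT. In the other direction, RB1-DT had 159, 135 and 157 with DMSO and 70.7, 43.4 and 82.5 with BEZ235 (log2 fold change -1.23 ± 0.26), while RB1, the retinoblastoma tumour suppressor, rose by 0.18 ± 0.05. C2orf74-DT fell by 0.38 on the log2 scale, and C2orf74 rose by 1.21; a row without a symbol overlaps C2orf74-DT. Of the 27 opposite pairs, 24 had rows that lie apart. A subset formed after the data were seen held 91 pairs with rows apart and no other expressed row over the divergent row. In it 18 pairs were opposite, 3 with the divergent transcript higher and 15 with it lower.

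**Figure D4:**
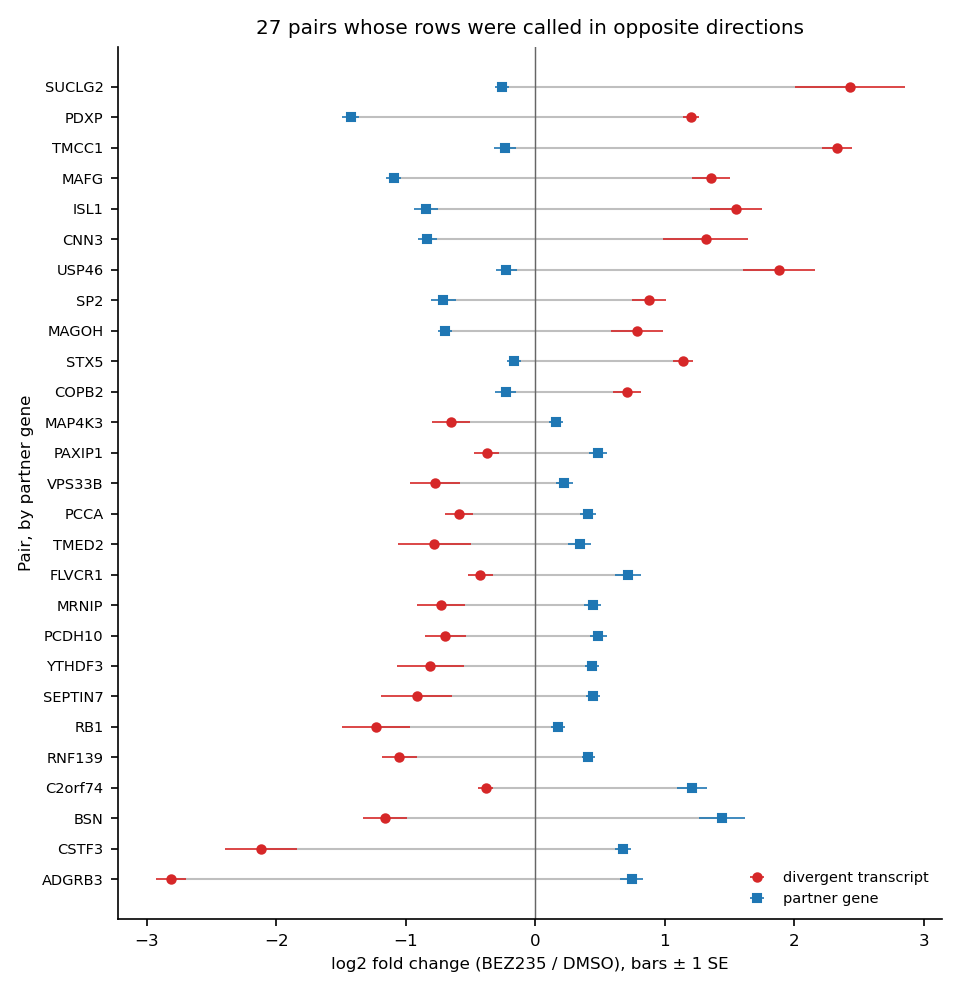
Log2 fold change (x axis, bars ± 1 SE) of the divergent transcript (red circles) and its partner gene (blue squares) in the 27 pairs called in opposite directions (y axis), ordered by the pair difference. The divergent transcript lies to the right of 0 in 11 pairs and to the left in 16.

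Partners were also grouped by role, after the values were seen, so the counts that follow describe these pairs only. Over all 162 pairs 27.8% of divergent transcripts were called higher and 35.2% lower, and of partners 35.2% higher and 39.5% lower. Among 9 sequence-specific transcription factors other than ZNF genes, 5 divergent transcripts were called higher (CEBPA-DT 0.82, SP2-DT 0.88, RFX3-DT 1.23, MAFG-DT 1.36 and ISL1-DT 1.55 on the log2 scale) and 4 were not called. RFX3-DT is far from its partner and entered the set only through BEZ235. Of their partners, 2 were called higher and 3 lower, and 3 of the pairs were opposite. Among 8 pairs of ZNF zinc finger genes, 2 divergent transcripts were called higher and 1 lower, and 5 partners higher and 3 lower; ZNF594 rose by 2.55 while ZNF594-DT was not called (0.21).

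Of 6 pairs with partners in translation, 5 had both rows called, all in the same direction. EIF3J-DT, RPL34-DT and MRPS30-DT rose by log2 fold changes of 1.15, 0.82 and 0.43 with an initiation factor subunit and 2 ribosomal proteins, which rose by 0.35, 0.85 and 1.01. EIF2AK3-DT fell by 1.20 and GARS1-DT fell by 0.72, beside a kinase of the unfolded protein response that fell by 0.65 and the glycyl-tRNA synthetase, which fell by 2.52. Of 10 pairs in RNA processing and export, 2 divergent transcripts were called higher and 5 lower, and 3 pairs were opposite (CSTF3, YTHDF3 and MAGOH). Of 8 pairs with mitochondrial proteins, 2 divergent transcripts were called higher and 4 lower. IDH2-DT fell by 0.91 and IDH2, an isocitrate dehydrogenase, fell by 0.96.

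In 7 pairs of the cell cycle and genome maintenance, 1 divergent transcript was called higher (SMC5-DT) and 3 lower (BTG2-DT, GTSE1-DT and RB1-DT). GTSE1-DT, which entered only through DMSO, fell by 1.28 on the log2 scale and GTSE1 fell by 1.91. ARHGAP11A fell by 1.97, and ARHGAP11A-DT was not called (-0.05). In 9 pairs with enzymes or adaptors that add or remove ubiquitin, 3 divergent transcripts were called higher and 5 lower. UCHL1-DT, which entered only through DMSO, is among those called lower. USP46-DT at 1.88 and RNF139-DT at -1.05 were in opposite pairs.

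The listed genes that act on promoter transcripts changed in both directions as well. The lists cover ending and decay, protection from early ends by U1 snRNP, and pausing and release. A count or median over all lists therefore mixes unlike roles. Of 84 listed genes, 83 were tested, and 44 were called higher, 22 lower and 17 not, with a median log2 fold change of 0.16 against -0.00085 for all tested rows. Of rows with a mean of at least 50, 36.5% were called higher and 37.3% lower, and the counts of the lists stand beside those shares. By at least 2-fold, 3 of the 83 genes were called higher and 3 lower, against 25.1% of those rows in both directions together. All of these genes are named below. In the nuclear exosome 6 of 13 were called higher and 6 lower. EXOSC5 rose by a log2 fold change of 0.97 ± 0.06 (SE) and EXOSC2 by 0.45 ± 0.06, while EXOSC8 fell by 1.23 and EXOSC7 fell by 0.76, all of them subunits of the exosome core. Of the NEXT and PAXT adaptors with the cap-binding proteins, 8 of 13 were called higher and 3 lower. SRRT, which links the cap to decay, rose by 1.38 ± 0.05 and ZC3H3 by 0.80 ± 0.07, and NCBP2 fell by 0.42. ZC3H18 fell by 0.19 (limma adjusted p = 0.0225), a call that was lost without DMSO replicate 3, BEZ235 replicate 1 or BEZ235 replicate 3 (0.0997, 0.0541 and 0.0686), after quantile normalization (0.0703) and in limma without the trend (0.0612).

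Integrator and the restrictor complex had 10 of 17 genes called higher and 3 lower. ZC3H4, the restrictor subunit that stops noncoding transcription early, had the largest change of the lists. Its normalized count was 1370 ± 255 (SD, n = 3) with DMSO and 5755 ± 273 with BEZ235, a log2 change of 2.08 ± 0.11 (SE; limma adjusted p = 4.11e-08). INTS3 rose by 0.97 ± 0.05, and INTS12 fell by 0.82 and INTS7 fell by 0.34. Of the protein genes of U1 snRNP, 3 of 10 were called higher and 5 lower. SNRPD3 stood at 0.67, SNRPE at 0.27, SNRPG at -1.01 and SNRPB at -0.62, and these proteins are shared with other snRNPs. SNRNP70, SNRPA and SNRPC, the listed proteins particular to U1, were picked after values were seen. They stood at 0.20, -0.17 (not called) and -0.39.

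In cleavage, polyadenylation and termination, 10 of 18 genes were called higher and 2 lower. CPSF6 rose by 1.23 ± 0.06 and the exonuclease XRN2 by 0.60 ± 0.05, and CPSF2 fell by 1.14 and CPSF4 fell by 0.38. CSTF3, given above as a partner, is also in this list. Of 12 genes of promoter pausing and release, 7 were called higher and 3 lower. SUPT4H1 rose by 0.66 and NELFA by 0.45, and HEXIM1 fell by 0.21 (limma adjusted p = 0.00976), which limma without the trend did not call (0.0510). The lists and the divergent transcripts were measured in the same libraries, and a link between them was not tested.

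**Figure D5:**
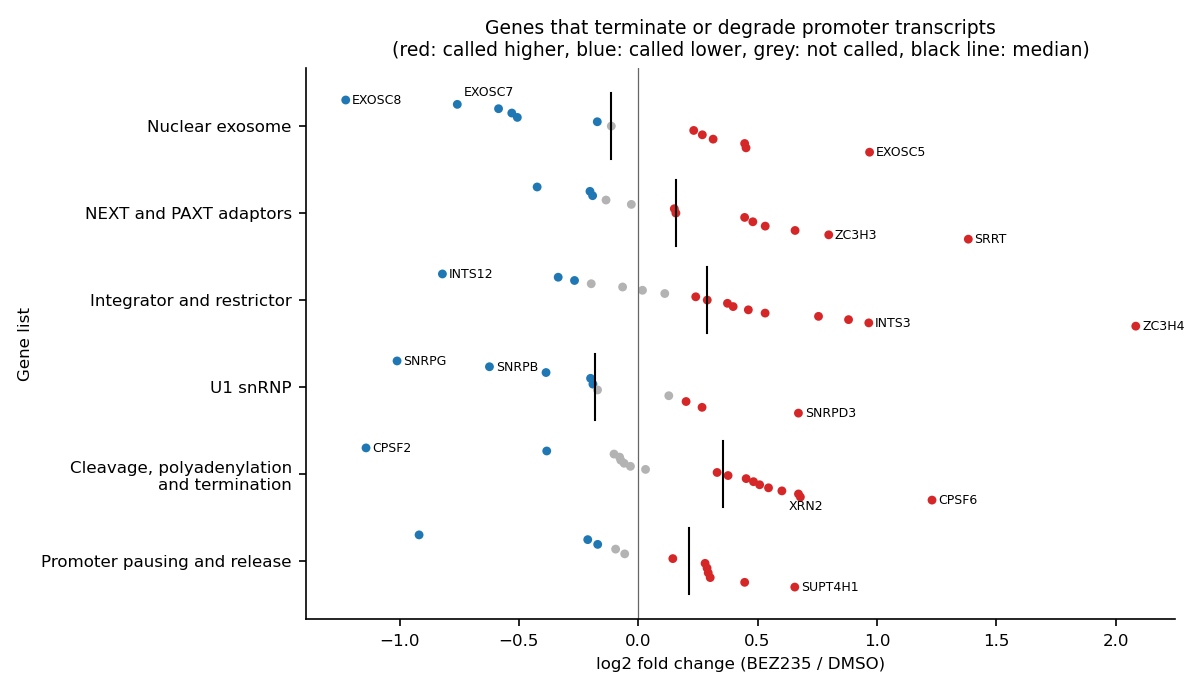
Log2 fold change with BEZ235 (x axis) of 83 genes in 6 lists of factors that act on promoter transcripts (y axis). The lists cover ending and decay, protection from early ends, and pausing and release. Red marks genes called higher, blue called lower and grey not called, with a black line at each list's median. ZC3H4 lies farthest to the right at 2.08 and EXOSC8 farthest to the left at -1.23.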

How the data were processed

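RNA was sequenced from 3 DMSO and 3 BEZ235 samples of TC-71 cells. The authors deposited 1 table of normalized read counts per gene (unit: signal) with hg38 coordinates and no strand. STAR 2.4.0, DESeq, SAMtools, Picard, FastQC and the build hg38 are named per the submitters' processing notes; no source used here gives their roles, the counting rule or the use of strand. Deposited values were whole multiples of the worth of 1 read, so reads were recovered (99.992 to 100.0% of values whole within 0.01), 184790722 to 233767211 per library. Limits of 3 reads cover counting error only.

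Rows with at least 10 in at least 3 of 6 libraries were tested (23923) by limma 3.58.1 with a trend (R 4.3.3) on log2(normalized count + 1), two-sided, with Benjamini-Hochberg adjustment over all of them and a threshold of 0.05. This scale understates changes of low rows. The pair difference was tested by limma on the per-library difference of log2 values, adjusted over 8441 pairs: consecutive rows that overlap or lie within 2000 bases, taken by position because the file gives no strand, and all 221 tested divergent pairs, of which 5 lie farther apart. Its variance trend followed the level of the lower row. In 5 pairs, none of them divergent, the rows held identical values, and limma offset their zero variances. edgeR 4.0.16 and DESeq2 1.42.0 on recovered reads called 15744 and 15706 rows, against 15863. An exact permutation test of 3 against 3 cannot go below 0.1. Scripts were tested on simulated data.

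The members and lists were chosen with earlier results of these data known. Named pairs are the 6 largest called rises and falls, 6 opposite pairs with the largest difference, the 4 highest divergent levels, and the 4 largest called pair differences in each direction; in each list up to 2 genes in each direction with the smallest adjusted p. A gene that this rule selects is not reported here. The role groups, the -AS1 pairs, the level and distance subsets and the printed promoters were chosen after values were seen. Promoters of members on chromosome 8 and of pairs without both RefSeq starts were not analysed here. ARS2, an alias of SRRT, matched no row. Alternatives were other scalings, pseudocounts, filters, level limits and pair definitions, both count tests, a replicate block and leaving out each library.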

Additional observations from a re-analysis of the deposited data

How the results depend on the processing

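Counts over the pairs held within 1.5 times, and medians and correlations within their spread between libraries, in 266 of 290 recomputed values. Leaving out each library gave 41 to 47 divergent transcripts called higher, 52 to 57 lower, 50 to 59 partners higher, 57 to 65 lower, 45 to 54 same-direction and 21 to 25 opposite pairs, and 40 to 51 and 37 to 44 pair differences above and below. The medians were then -0.0393 to 0.0393 (divergent) and -0.022 to -0.00173 (partner), r 0.21 to 0.25 and rho 0.24 to 0.27. Total-count scaling moved the median of all tested rows to -0.098 and those of divergent and partner rows to -0.0893 and -0.105; quantile normalization moved the partner median to 0.0376. A mean of at least 200 left 86 pairs, with 32 divergent transcripts lower, 32 partners higher and 29 lower, 32 same-direction and 16 opposite pairs, 27 and 26 pair differences above and below, and rho 0.29. A mean of at least 50 in each group left 144 pairs, with 42 divergent transcripts higher and 45 lower, r 0.15 and rho 0.20. RefSeq starts on opposite strands within 2000 bases left 120 pairs, with r 0.20. An alternative added after the data were seen kept 91 pairs with rows apart and no other expressed row over the divergent row: 22 divergent transcripts were higher and 36 lower, 29 partners lower, 28 pairs moved in the same direction, 24 and 30 pair differences were above and below, the partner median was 0.0949, r 0.20 and rho 0.19. Of those 91 pairs 18 were opposite, 3 with the divergent transcript higher and 15 with it lower. Without the 5 pairs of identical rows, also left out after the data were seen, the pair counts were again 48 and 46. Counts from sets with fewer pairs cannot be set directly beside those of all pairs, and the cause of the shifts was not tested. The replicate numbers did not pair the samples (correlations of same-numbered deviations -0.038, 0.023 and 0.044); with the replicate number as a block 44 divergent transcripts were higher, 57 lower, and 28 pairs were opposite. Of 1290 single values, 11 lost and 3 gained a call, and 0 reversed; the calls lost were of TMCC1, ZC3H18 and HEXIM1. Where neither setting made a call, a change of sign was not counted. Rows with few reads limit the precision, as the standard errors show.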
